A study of Rattus norvegicus with 32 samples.

Results

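Nitric oxide and endothelin are the opposed vasoactive signals of the hepatic sinusoid, and their genes were followed in rat liver sinusoidal endothelial cells (LSECs), the fenestrated endothelium that lines it. The members were set by gene symbol and not by a threshold on any measured value, but were chosen with earlier results of these data known. They are the nitric oxide synthases Nos3 and Nos2, the dimethylarginine hydrolases Ddah1 and Ddah2, the ligand Edn1, the converting enzyme Ece1 and the receptors Ednra and Ednrb. Of these 8 symbols, 7 had a row among the 32623 genes of the count tables. Nos2 was not analysed here. The rows are ENSRNOG00000009348 (Nos3), ENSRNOG00000014613 (Ddah1), ENSRNOG00000000842 (Ddah2), ENSRNOG00000014361 (Edn1), ENSRNOG00000014241 (Ece1), ENSRNOG00000012721 (Ednra) and ENSRNOG00000010997 (Ednrb).

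RNA-seq was available for 32 LSEC libraries in 6 groups. Healthy LSECs came from 6 untreated male Wistar Han rats, and CCl4-LSECs from rats of the same strain that inhaled carbon tetrachloride (CCl4), a hepatotoxin, for 2 weeks (acute, 5 libraries), 6 weeks (fibrosis, 5 libraries) or 12 to 14 weeks (cirrhosis, 6 libraries). Phenobarbital in the drinking water belongs to this CCl4 model, and the study's main methods do not say whether the untreated rats received it. In the CCl4 and TAA (thioacetamide) models, cells were isolated several days after the last dose of toxicant. The last CCl4 group's labels say CCl4 without a duration, which comes from the study's description. The thioacetamide (TAA, another hepatotoxin) experiment has 5 libraries labelled control and 5 labelled TAA control. In both experiments the cells were separated on an iodixanol density gradient after perfusion and digestion of the liver, and marker-based sorting is not mentioned for them. The 10 libraries of the TAA experiment carry the strain label Wistar Han, whereas the description names Sprague-Dawley rats. Since the labels do not settle which of the groups received TAA, their difference is given as TAA control minus control, with no direction of disease. Ages are not given in the sources used here, and no sequencing batch is named. The study gives the same starting weight range for all CCl4 rats, which were then exposed for different times. A difference in age between the stages therefore cannot be told apart from stage. A batch that follows the groups cannot be told apart from them.

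Endothelial nitric oxide synthase, the product of Nos3, makes nitric oxide from arginine with tetrahydrobiopterin as cofactor, and nitric oxide relaxes neighbouring contractile cells through guanylate cyclase and cyclic GMP. Asymmetric dimethylarginine (ADMA) inhibits the synthase and is broken down by the DDAH enzymes. Endothelin-1 is made as a precursor from Edn1, is cleaved by endothelin-converting enzyme (Ece1), and contracts stellate and smooth muscle cells through the type A receptor, while the type B receptor on endothelium clears the peptide and stimulates nitric oxide release. In cirrhosis, a loss of nitric oxide availability and a gain of endothelin in the sinusoid are the textbook background of raised intrahepatic resistance.

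The 250 bases before the annotated start of transcription are shown for the synthase, the ligand and both receptors, the genes on which the comparisons below turn. They are RefSeq sequences of the assembly GRCr8, which is not the Rnor_6.0 assembly of the counts, and 6 of the 8 symbols had one. Each is written 5′ to 3′ on the strand of its gene. Capitals mark CACCC, the letters bound by Krüppel-like factors such as the flow-responsive Klf2, GATAA (GATA factors), TGANTCA (AP-1) and TATAAA (the TATA box), searched on both strands, so that TTATC and GGGTG are matches on the opposite one. The windows lie at chr4:11706582-11706831 on the minus strand (Nos3), chr17:22666688-22666937 on the minus strand (Edn1), chr19:47137674-47137923 on the plus strand (Ednra) and chr15:87086766-87087015 on the minus strand (Ednrb).
Nos3: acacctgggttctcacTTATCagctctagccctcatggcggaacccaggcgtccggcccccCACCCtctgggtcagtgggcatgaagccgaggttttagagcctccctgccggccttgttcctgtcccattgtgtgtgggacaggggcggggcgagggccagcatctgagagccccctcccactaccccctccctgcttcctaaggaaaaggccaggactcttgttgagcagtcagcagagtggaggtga
Edn1: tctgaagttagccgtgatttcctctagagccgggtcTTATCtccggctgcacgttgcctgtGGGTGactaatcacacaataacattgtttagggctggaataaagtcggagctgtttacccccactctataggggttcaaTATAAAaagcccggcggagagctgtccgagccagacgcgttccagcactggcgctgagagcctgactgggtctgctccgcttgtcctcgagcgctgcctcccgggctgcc
Ednra: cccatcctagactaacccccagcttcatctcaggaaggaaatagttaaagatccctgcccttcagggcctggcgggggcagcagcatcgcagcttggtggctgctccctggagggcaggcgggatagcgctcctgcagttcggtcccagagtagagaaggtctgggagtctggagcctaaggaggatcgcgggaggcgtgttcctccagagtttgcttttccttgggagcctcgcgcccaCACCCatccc
Ednrb: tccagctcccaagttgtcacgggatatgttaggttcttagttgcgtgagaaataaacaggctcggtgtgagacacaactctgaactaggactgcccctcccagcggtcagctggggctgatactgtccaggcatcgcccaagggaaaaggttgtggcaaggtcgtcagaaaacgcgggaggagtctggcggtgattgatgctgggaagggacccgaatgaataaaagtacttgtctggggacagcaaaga

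In Nos3, CACCC stood 189 to 185 bases before the start and GATAA 234 to 230 bases before it. Edn1 had CACCC at the same distance as Nos3, GATAA at 214 to 210 bases and TATAAA at 110 to 105 bases. Ednra had CACCC at 10 to 6 bases, and the Ednrb window held none of the 4 motifs. Of the windows not shown, Ece1 had CACCC at 174 to 170 bases and Ddah1 had no match. No match overlapped another, and TGANTCA was found in none of the 6 windows. Short motifs are frequent: of 33469 rat promoter windows of this length, 49.2% held CACCC, 23.5% GATAA, 6.34% TGANTCA and 12.9% TATAAA.

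Totals per library ranged from 25646531 to 46464289 expected counts. Levels are CPM, counts relative to library size, scaled with TMM factors over the 22 libraries of the CCl4 experiment and separately over the 10 of the TAA experiment, so levels are compared within an experiment and within a gene, since CPM does not correct for gene length. A gene was called when limma-voom gave a Benjamini-Hochberg adjusted p under 0.05 over all genes tested together with a fold-change above 1.5. LSEC identity was checked with 10 markers, all of which were detected in each of the 6 groups. Their summed level was 15584 to 29817 CPM in healthy, 2296 to 2859 CPM in acute, 1571 to 2660 CPM in fibrosis and 14234 to 18374 CPM in cirrhosis libraries, and 9 and 10 of the 10 markers were called lower in acute injury and fibrosis. In bulk libraries, fewer cells of a type and less RNA per cell cannot be told apart. Immediate-early genes, which respond to cell handling, had medians of 37714, 1292, 1989 and 20292 CPM in the same order of groups.

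Nos3 was abundant in healthy LSECs, far lower in acute injury and fibrosis, and intermediate in cirrhosis. Healthy libraries ranged from 551 to 1651 CPM, with a median of 1081 and a mean of 1077 ± 354 (SD, n = 6). The 5 acute libraries were at 28.1, 33.2, 33.6, 38.4 and 31.8 CPM, and the 5 fibrosis libraries at 32.6, 37.1, 26.7, 33.0 and 25.6 CPM. These groups overlapped each other and lay far below both the healthy and the cirrhotic libraries. Cirrhotic libraries ranged from 374 to 493 CPM (median 401), so that the highest of them was still below the lowest healthy one. Nos3 was 30.5-fold lower than in healthy LSECs in acute injury (log2 fold change -4.93, standard error 0.225, adjusted p = 4.71e-09) and 31.9-fold lower in fibrosis (-4.99, standard error 0.232, adjusted p = 7.14e-09). In cirrhosis it was 2.50-fold lower (-1.32, standard error 0.217, adjusted p = 0.000380).

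Between fibrosis and acute injury the difference in Nos3 was -0.02 on the log2 scale, with a 95% interval of -0.28 to 0.24 (adjusted p = 0.917). Cirrhotic LSECs had 13.3-fold more Nos3 than fibrotic LSECs (log2 fold change 3.73, standard error 0.109, adjusted p = 1.68e-10). The summed LSEC markers moved beside Nos3, with medians of 22502, 2455, 2160 and 16276 CPM in healthy, acute, fibrosis and cirrhosis libraries. So did the sum of 7 general endothelial markers, at 12677 to 19472 CPM in healthy, 3144 to 4230 CPM in acute, 2530 to 3125 CPM in fibrosis and 8378 to 10339 CPM in cirrhosis libraries. The single markers were less uniform. Of the 7, 1 was called higher and 5 lower in acute injury, 0 and 5 in fibrosis, and 1 and 3 in cirrhosis. In cirrhosis, 1 of the 10 LSEC markers was called higher and 4 lower. The part of these markers in the difference was not tested. Nos3 counts were not whole numbers in 32 of 32 libraries, which means that some of its reads were divided among genes when they were estimated, and its level is uncertain to that extent.

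**Figure D1:**
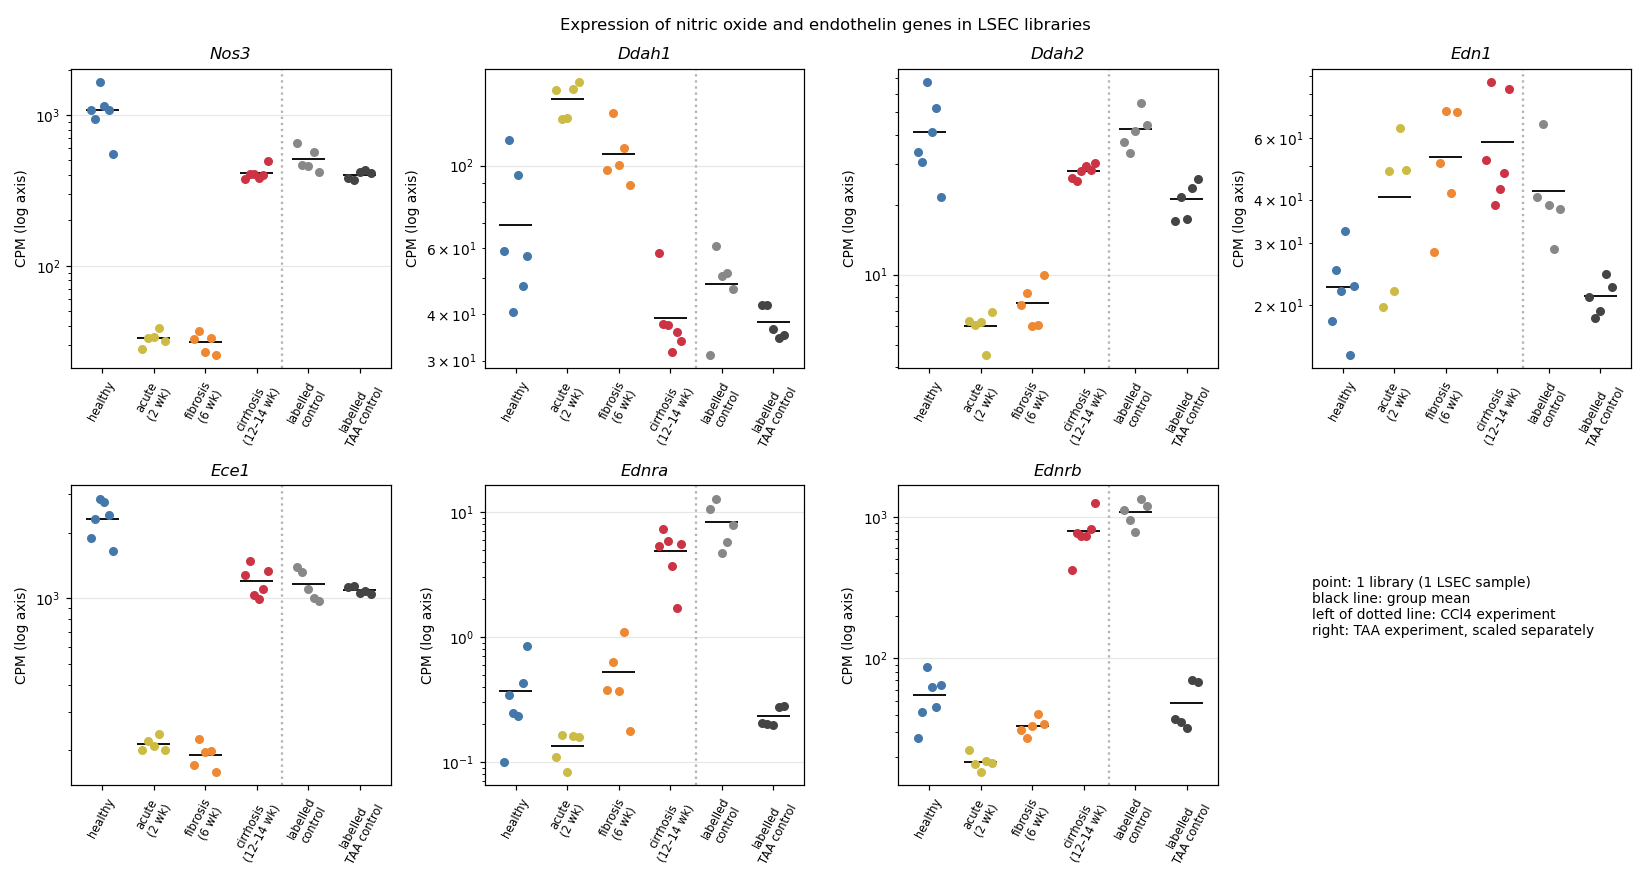
Level of each of the 7 genes in CPM on a log axis, with 1 point per library, a black line at the group mean, and the TAA experiment to the right of the dotted line, scaled separately. Nos3 and Ece1 drop in the acute and fibrosis libraries, while Ednra and Ednrb are highest in the cirrhosis libraries and in those labelled control.

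The DDAH enzymes went opposite ways in acute injury and fibrosis. Ddah1 in healthy libraries ranged from 40.6 to 117 CPM (median 58.2). Acute libraries were at 159, 134, 134, 161 and 167 CPM, all above the healthy range, and fibrosis libraries at 97.4, 138, 101, 112 and 88.8 CPM, overlapping it. Ddah1 rose 2.38-fold in acute injury (log2 fold change 1.25, standard error 0.258, adjusted p = 0.000724) and 1.72-fold in fibrosis (0.78, standard error 0.264, adjusted p = 0.0174). The rise in fibrosis missed the threshold without healthy replicate 6 (0.70, adjusted p = 0.0531).

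In cirrhosis Ddah1 was between 31.6 and 58.4 CPM (median 36.6), with 5 of the 6 libraries below the lowest healthy one, and it fell 1.68-fold (log2 fold change -0.74, standard error 0.260, adjusted p = 0.0257). This fall was fragile. It missed the threshold in 5 of 12 fits that left out 1 library (cirrhosis 4, 5 or 6, healthy 2 or 4; -0.57 to -0.73 on the log2 scale) and with library size in place of TMM (-0.40, adjusted p = 0.207). Among healthy libraries Ddah1 was lowest in replicates 3 and 5, where the summed hepatocyte markers were also lowest (2016 and 727 CPM), and highest in replicates 2 and 4, where they were 17535 and 17575 CPM. Replicate 6 had as high a hepatocyte sum (17420 CPM) with Ddah1 at 57.3 CPM. In the acute libraries, with Ddah1 at 134 to 167 CPM, the hepatocyte markers summed to 87.5 to 778 CPM. The part of hepatocyte RNA in Ddah1 was not tested. In the direct comparison, Ddah1 was 2.78-fold lower in cirrhosis than in fibrosis (log2 fold change -1.47, standard error 0.157), and the groups did not overlap.

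Ddah2 fell, as Nos3 did, in acute injury and fibrosis. It ranged from 21.6 to 67.3 CPM in healthy libraries (median 37.3). Acute libraries had 6.34, 6.05, 6.28, 4.51 and 6.92 CPM and fibrosis libraries 7.37, 8.36, 5.99, 6.08 and 10.01 CPM, all below every healthy library. Ddah2 was 6.29-fold lower in acute injury (log2 fold change -2.65, standard error 0.291, adjusted p = 4.66e-06) and 4.90-fold lower in fibrosis (-2.29, standard error 0.288, adjusted p = 1.77e-05). Cirrhotic libraries, at 25.3 to 30.3 CPM (median 28.1), lay within the healthy range. Their difference of -0.45 did not pass (95% interval -0.95 to 0.05, adjusted p = 0.112), although without healthy replicate 6, the lowest healthy library, it did (-0.63, adjusted p = 0.00914). Expected counts of Ddah2 were not whole in 22 of 32 libraries.

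Edn1, the ligand, was the only member higher than in healthy LSECs at all 3 stages. Healthy libraries ranged from 14.4 to 32.6 CPM (median 22.3). Acute libraries were at 19.7, 48.3, 21.9, 64.3 and 48.6 CPM, with 2 of the 5 inside the healthy range, and fibrosis libraries at 28.3, 50.9, 71.5, 41.9 and 71.3 CPM, with 1 of the 5 inside it. Cirrhotic libraries ranged from 38.6 to 86.6 CPM (median 49.7) and all 6 lay above the healthy ones. Edn1 rose 2.57-fold in cirrhosis (log2 fold change 1.36, standard error 0.251, adjusted p = 0.000760) and 2.40-fold in fibrosis (1.26, standard error 0.276, adjusted p = 0.00128).

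The rise of Edn1 in acute injury was at the threshold (log2 fold change 0.78, standard error 0.332, adjusted p = 0.0460). It missed the threshold in 7 of 11 fits that left out 1 library (healthy 1, 2, 3 or 5, acute 2, 4 or 8), where the log2 fold change was as low as 0.59, and with the replicate number as a block it was 0.58, under the fold-change threshold. The stages were not separated from each other in Edn1, with a log2 difference between cirrhosis and fibrosis of 0.16 (95% interval -0.46 to 0.77, adjusted p = 0.622) and between fibrosis and acute injury of 0.51 (95% interval -0.29 to 1.32, adjusted p = 0.340).

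Ece1, which cleaves the endothelin precursor, ran with Nos3 and against its substrate gene Edn1 in direction. Healthy libraries ranged from 1645 to 2853 CPM (median 2361), and cirrhotic libraries from 997 to 1480 CPM (median 1190.0), without overlap. The acute libraries were at 202, 220.4, 210.1, 238.5 and 202 CPM and the fibrosis libraries at 172, 227, 196, 199 and 159 CPM. Ece1 was 10.4-fold lower in acute injury (log2 fold change -3.37, standard error 0.153, adjusted p = 4.48e-09), 11.5-fold lower in fibrosis (-3.52, adjusted p = 6.20e-09) and 1.89-fold lower in cirrhosis (-0.92, standard error 0.174, adjusted p = 0.000878). With library size in place of TMM, the difference in cirrhosis was -0.57, under the fold-change threshold.

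Both endothelin receptors were higher in cirrhosis than at any other stage of the CCl4 experiment. Ednrb in healthy libraries ranged from 27.2 to 86.4 CPM (median 53.6), and in cirrhotic libraries from 417 to 1261 CPM (median 750). It was 14.7-fold higher in cirrhosis (log2 fold change 3.88, standard error 0.288, adjusted p = 1.13e-05). Acute libraries had 22.3, 17.9, 15.8, 18.8 and 18.3 CPM, all below the healthy ones, a fall of Ednrb by 1.43 on the log2 scale (standard error 0.259, adjusted p = 0.000277). Fibrosis libraries had 31.0, 27.3, 33.3, 40.2 and 34.2 CPM, above every acute library and inside the lower healthy range.

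The difference of Ednrb between fibrosis and healthy LSECs was -0.57 on the log2 scale and did not pass (adjusted p = 0.0607). It did with edgeR (-0.64, adjusted p = 0.0349), with DESeq2 (-0.62, adjusted p = 0.0291) and without healthy replicate 1 (-0.75, adjusted p = 0.00763). Between fibrosis and acute injury Ednrb was the only member called, 1.88-fold higher in fibrosis (log2 fold change 0.91, standard error 0.120, adjusted p = 0.00363), a call that was lost when all 22 libraries shared one estimate of the spread (0.83, adjusted p = 0.0673). Cirrhotic LSECs had 22.7-fold more Ednrb than fibrotic and 40.5-fold more than acute LSECs (log2 fold changes 4.50 and 5.34, adjusted p at most 2.92e-09).

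Ednra was a low-level transcript. Its expected counts were 3 to 33 in healthy, 3 to 7 in acute and 6 to 38 in fibrosis libraries, against 76 to 369 in cirrhotic libraries. Cirrhotic libraries ranged from 1.69 to 7.33 CPM (median 5.45) and healthy libraries from 0.100 to 0.853 CPM (median 0.294), without overlap. Ednra was 13.6-fold higher in cirrhosis (log2 fold change 3.77, standard error 0.544, adjusted p = 0.000186). It passed the low-count filter in that comparison through the cirrhotic libraries, and it was too low to be tested between acute and healthy LSECs. In fibrosis the libraries were at 0.373, 0.624, 0.366, 1.09 and 0.175 CPM, and a difference from healthy was not detectable at this depth (log2 fold change 0.54, 95% interval -0.67 to 1.75, adjusted p = 0.388).

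Genes of hepatic stellate cells, the contractile pericytes that carry endothelin receptors, were mostly higher in cirrhosis, as both receptors were. Of the 11 stellate cell markers, 8 were called higher and 0 lower in cirrhosis than in healthy LSECs, and none was at 0 in all libraries of a group. At the earlier stages 10 were tested, with 1 called higher and 7 lower in acute injury and 3 higher and 4 lower in fibrosis. The summed level of the 11 was 327 to 857 CPM in healthy, 1316 to 2134 CPM in acute, 1306 to 1752 CPM in fibrosis and 670 to 2068 CPM in cirrhosis libraries. In acute injury and fibrosis most of this sum was Reln, at 1678 and 1378 CPM on average. Without Reln, a choice made after its values were seen, the other 10 summed to 208 to 676 CPM in healthy, 10.7 to 36.3 CPM in acute, 40.7 to 182 CPM in fibrosis and 533 to 1843 CPM in cirrhosis libraries. Within cirrhosis, replicate 5 was lowest and replicate 2 highest for this sum (533 and 1843 CPM) and for Ednra (1.69 and 7.33 CPM). Ednrb was lowest in replicate 1 (417 CPM) and highest in replicate 6 (1261 CPM), and in replicate 5, with the fewest stellate transcripts, it was 821 CPM. The 4 smooth muscle markers, cells that also carry endothelin receptors, summed to 4.41 to 9.88 CPM in healthy, 4.30 to 17.6 CPM in acute, 13.9 to 100.3 CPM in fibrosis and 13.8 to 42.5 CPM in cirrhosis libraries, and none was at 0 in all libraries of a group. Their median sum was 67.4 CPM in fibrosis and 25.0 CPM in cirrhosis. Within cirrhosis this sum was highest in replicate 6 (42.5 CPM) and lowest in replicate 5 (13.8 CPM). Of 3 tested, 0 were called higher and 1 lower in acute injury, 2 and 1 in fibrosis, and 2 and 0 in cirrhosis. Over all genes tested, 35.5%, 35.3% and 27.1% were called higher at these stages, and 37.9%, 34.9% and 24.7% lower. The part of stellate or smooth muscle cell RNA in either receptor was not tested.

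**Figure D2:**
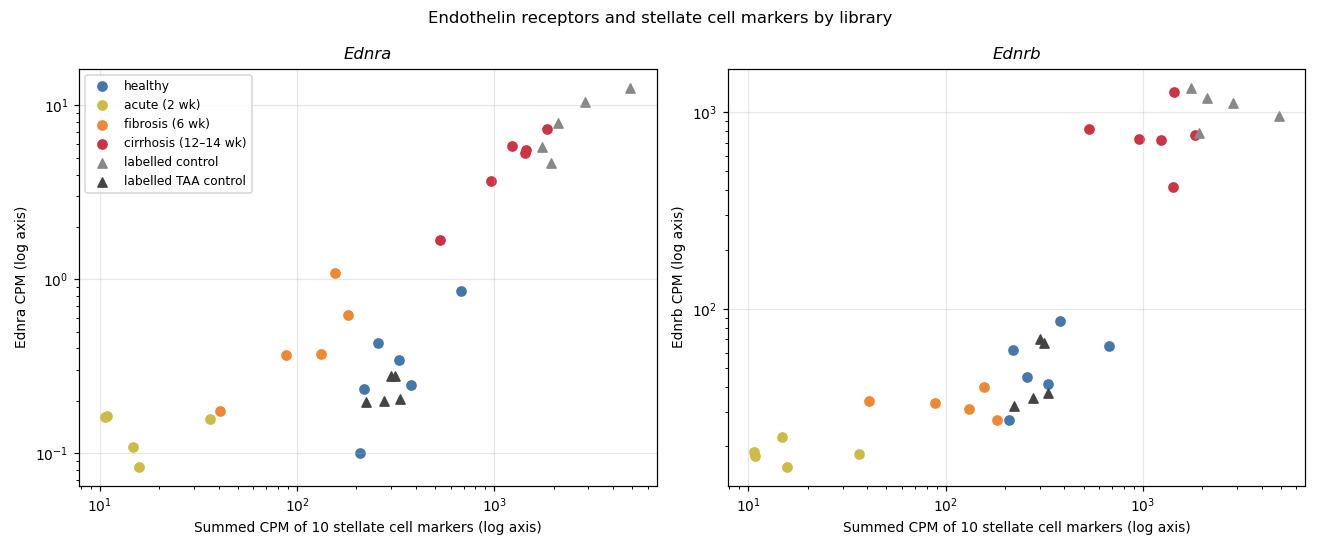
CPM of Ednra (left) and Ednrb (right) against the summed CPM of 10 stellate cell markers without Reln, with 1 point per library, log axes, circles for the CCl4 and triangles for the separately scaled TAA experiment. Libraries with sums above 500 CPM are the 6 cirrhotic ones, the 5 labelled control and 1 healthy library. In that healthy library Ednrb was at 65.0 CPM and Ednra at 0.853 CPM, the highest Ednra among healthy libraries.

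**Figure D3:**
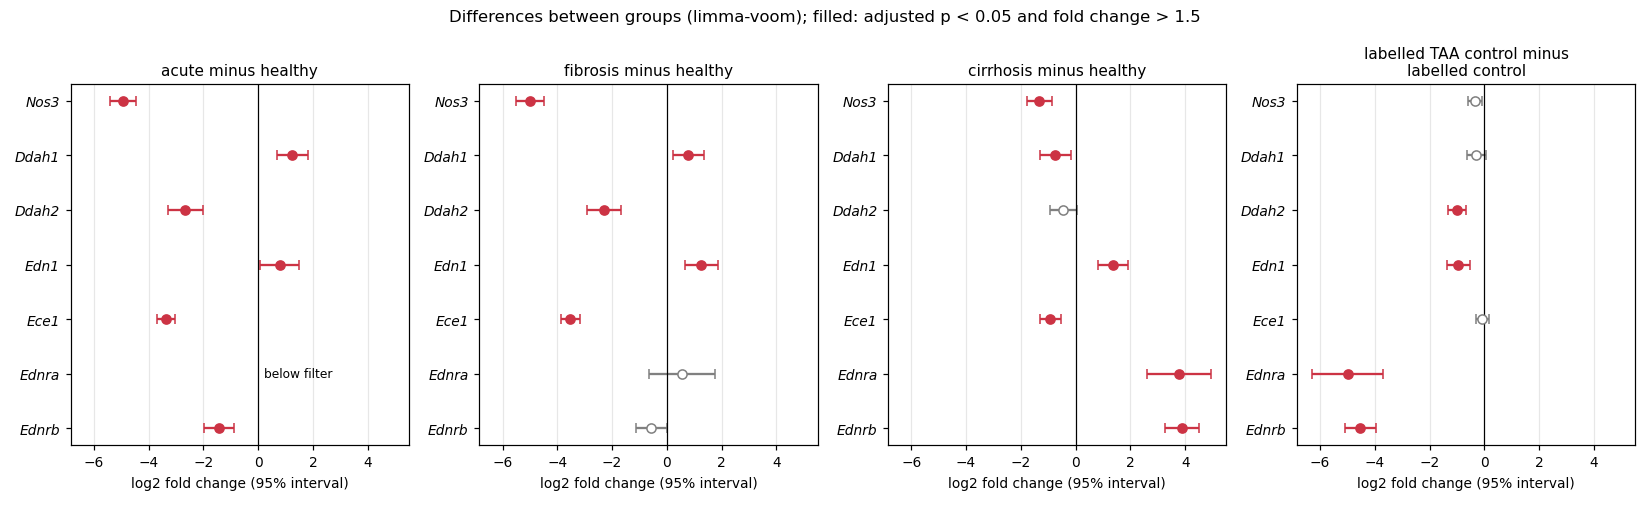
Log2 fold changes with 95% intervals from limma-voom in 4 comparisons. Filled points were called (adjusted p under 0.05 and a fold-change above 1.5), open points were not, and Ednra was below the filter in acute injury.

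Counted together, 6 of 6 members tested were called in acute injury, where 73.4% of all genes tested were. Of these, 2 were higher (35.5% of all genes) and 4 lower (37.9%), and the groups did not overlap in 5 of the 6 (60.0% of all genes). In fibrosis 5 of 7 were called (70.2% of all genes), 2 higher (35.3%) and 3 lower (34.9%), with no overlap in 3 (58.7%). In cirrhosis 6 of 7 were called (51.8% of all genes), 3 higher (27.1%) and 3 lower (24.7%), with no overlap in 5 (27.2%). Calls were thus frequent among all genes. The median log2 difference of the members tested was -2.04 in acute injury, -0.57 in fibrosis and -0.45 in cirrhosis, and that of all genes -0.09, -0.03 and 0.07. The 3 comparisons with healthy LSECs share the same 6 libraries.

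Among the CCl4 stages, 1 of 6 members was called between fibrosis and acute injury (11.0% of all genes), and it was higher in fibrosis, as were 10.2% of all genes, where 0.732% were lower. The groups did not overlap in 1 of the 6 members tested and in 17.2% of all genes. Between cirrhosis and fibrosis 6 of 7 members were called (63.8% of all genes), 5 higher (34.3%) and 1, Ddah1, lower (29.5%), with no overlap in 6 (63.3%). Between cirrhosis and acute injury 6 of 7 were called (69.3% of all genes), again 5 higher (37.5%) and Ddah1 lower (31.8%), with no overlap in 6 (65.9%). The member not called in either was Edn1.

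Ratios within a library do not depend on how libraries are scaled, and are given without a test. The log2 ratio of Edn1 to Nos3 counts was -5.56 ± 0.665 in healthy LSECs (SD, n = 6), which corresponds to 2.13% as many Edn1 as Nos3 counts. It was 0.15 ± 0.659 in acute injury and 0.70 ± 0.728 in fibrosis (SD, n = 5 each), where Edn1 counts were about as many as those of Nos3 or more. In cirrhosis it was -2.88 ± 0.419 (SD, n = 6), or 13.6%, between the healthy libraries and those of the earlier stages. Each of the cirrhotic libraries lay above each healthy library and below each library of acute injury and fibrosis. The log2 ratio of Ddah1 to Ddah2 was 0.75 in healthy, 4.65 in acute, 3.83 in fibrosis and 0.46 in cirrhotic LSECs, so that healthy and cirrhotic libraries overlapped. The log2 ratio of Ednra to Ednrb lay between -7.39 and -6.17 in the means of these 4 groups, and in all of them Ednrb had far more counts.

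**Figure D4:**
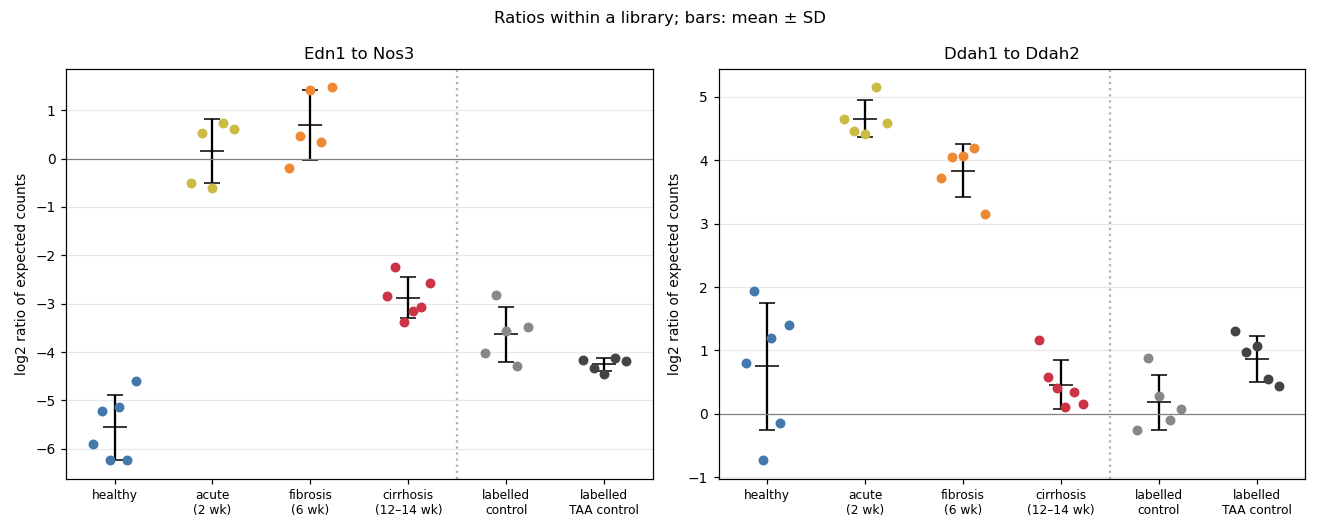
Log2 ratio of expected counts within each library (1 point per library, bars mean ± SD) for Edn1 to Nos3 and Ddah1 to Ddah2. Edn1 to Nos3 was near or above 0 in acute injury and fibrosis, and the cirrhosis libraries lie between these and the healthy libraries.

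In the TAA experiment the receptors differed most between the groups, and Nos3 and Ece1 differed little. Ednrb was at 1111, 956, 779.6, 1334 and 1185 CPM in the libraries labelled control and at 37.2, 35.4, 31.9, 69.9 and 67.4 CPM in those labelled TAA control. It was 23.2-fold lower in TAA control (log2 fold change -4.54, standard error 0.256, adjusted p = 1.89e-06). Ednra was at 10.5, 12.7, 4.68, 5.74 and 7.91 CPM in control and at 0.204, 0.2003, 0.198, 0.277 and 0.279 CPM in TAA control, the latter from 6 or 7 counts in a library. The fitted difference was 31.9-fold (log2 fold change -5.00, standard error 0.584, adjusted p = 9.89e-05). Ednra passed the low-count filter here through the control libraries, with 129 to 361 counts. Both receptors were thus lower in TAA control without overlap, by log2 amounts between -4.40 and -5.17 whichever library was left out.

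Edn1 was at 40.6, 66.0, 38.7, 28.9 and 37.5 CPM in the libraries labelled control and at 21.1, 18.4, 19.2, 24.6 and 22.5 CPM in those labelled TAA control, 1.94-fold lower (log2 fold change -0.96, standard error 0.192, adjusted p = 0.00205). Ddah2 was at 37.1, 33.2, 41.4, 54.8 and 44.1 CPM in control and at 17.1, 21.5, 17.4, 23.6 and 25.8 CPM in TAA control, 2.01-fold lower (-1.01, standard error 0.154, adjusted p = 0.000444). Neither gene overlapped between the groups. Nos3 had a mean of 514 ± 96.5 CPM in control and 402 ± 26.7 CPM in TAA control (SD, n = 5 each), a difference of -0.34 on the log2 scale that was under the fold-change threshold (adjusted p = 0.0337). Ddah1 differed by -0.31 (adjusted p = 0.126) and Ece1 by -0.08 (95% interval -0.31 to 0.16, adjusted p = 0.575).

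In all, 4 of 7 members were called in the TAA experiment, where 27.6% of all genes tested were. All 4 were lower in TAA control, as were 14.9% of all genes, while 12.7% were higher. The groups did not overlap in 4 of 7 members and in 35.4% of all genes. Marker sums differed between these groups too. Stellate markers summed to 2159 to 5447 CPM in control and 362 to 553 CPM in TAA control, with 0 of 11 called higher and 9 lower in TAA control. Smooth muscle markers summed to 34.3 to 115 CPM in control and 8.70 to 10.6 CPM in TAA control, without overlap, with 2 of 3 tested called lower, and LSEC markers to 19988 to 25273 CPM and 25413 to 32984 CPM. The part of other cell types in the receptor difference was not tested. Replicates 14 and 15 of TAA control resembled one another more than any other pair did, with a chi-square per degree of freedom of 3.05 against at least 25.2, and averaging them left 4 members called. The study describes independent isolations in each group, and whether replicates 14 and 15 come from different rats was not tested. The sample size of TAA control therefore counts libraries, not necessarily rats.

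Among 9 partners and regulators of the endothelial synthase, Klf2, a flow-induced transcription factor that activates Nos3, fell furthest. It was at 585 CPM on average in healthy, 5.09 CPM in acute, 6.73 CPM in fibrosis and 215 CPM in cirrhotic LSECs. Its log2 fold changes against healthy LSECs were -6.95 (standard error 0.415, adjusted p = 2.91e-08), -6.29 (adjusted p = 7.65e-09) and -1.44 (adjusted p = 0.00166). Of the 9, 2 rose and 3 fell in acute injury, 2 rose and 4 fell in fibrosis, and 3 rose and 3 fell in cirrhosis, while 73.4%, 70.2% and 51.8% of all genes tested were called at these stages, the shares that the lists below are to be read against. The list's median log2 fold change was -0.44, -0.58 and 0.55 at the 3 stages, against -0.09, -0.03 and 0.07 over all genes. Klf4, a related factor, also fell in acute injury (-2.76) and fibrosis (-2.05), as did Nostrin (-1.65 and -1.52), which moves the synthase off the membrane. In cirrhosis the difference of Klf4 was 0.79 (adjusted p = 0.132). Cav1, whose caveolin holds the synthase inactive, rose at all 3 stages (1.75, 1.44 and 1.12). In cirrhosis the chaperone gene Hsp90aa1 (2.63, adjusted p = 0.00207) and Nostrin (1.59, adjusted p = 0.00203) rose and Nosip, another inhibitory partner, fell (-1.42). At the earlier stages Hsp90aa1 (-0.17 and -0.21) and Nosip (-0.44 and -0.58) were not called. Several of these genes respond to cell handling, and the immediate-early sums given above moved in the same order as Klf2. Their part in these changes was not tested.

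Of 12 genes for tetrahydrobiopterin and arginine supply, 1 rose and 7 fell in acute injury, 3 rose and 7 fell in fibrosis, and 0 rose and 6 fell in cirrhosis. The list's median was -1.83, -1.63 and -0.67. Gchfr, the feedback regulator of GTP cyclohydrolase, fell by 5.72, 5.36 and 1.69 on the log2 scale at the 3 stages (adjusted p at most 0.000227). Spr, the last enzyme of tetrahydrobiopterin synthesis, had log2 fold changes of -2.41, -2.26 and -1.99, and Qdpr, which recycles it, of -1.51, -1.72 and -1.72. The urea cycle gene Ass1 fell at all 3 stages (-5.21, -3.49 and -2.04) and Arg1 in acute injury (-4.29) and fibrosis (-3.65), while in cirrhosis Arg1 differed by -0.31 (adjusted p = 0.660). Both are strongly expressed in hepatocytes. Hepatocyte markers summed to 727 to 17575 CPM in healthy and 87.5 to 778 CPM in acute libraries, with 8 of 8 called lower in acute injury. In fibrosis they summed to 1029 to 4283 CPM, with 5 of 8 called lower. In cirrhosis they summed to 1692 to 11204 CPM, inside the healthy range, with 1 of 8 called lower, while Ass1 was still lower. Their part in the falls of Ass1 and Arg1 was not tested.

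Of 7 genes for ADMA and nitric oxide turnover, 6 were tested, of which 2 rose and 3 fell in acute injury and in fibrosis, and 0 rose and 2 fell in cirrhosis. The list's median was -0.85, -1.02 and -0.49. Prmt3, an arginine methyltransferase, rose (log2 fold changes 3.71 and 3.18 in acute injury and fibrosis, adjusted p = 2.51e-09 and 6.20e-09), and its difference in cirrhosis was 0.49, under the fold-change threshold. Cygb, a globin that consumes nitric oxide, fell by 3.27, 3.69 and 0.90 on the log2 scale at the 3 stages, and Cyb5r3, a reductase, also fell (-2.67, -2.29 and -0.94). Cygb is also known as a stellate cell gene. Of the stellate cell markers tested, 1 of 10 was called higher and 7 lower in acute injury, and 3 of 10 higher and 4 lower in fibrosis. In cirrhosis 8 of 11 were called higher and 0 lower, while Cygb was lower. The part of stellate cell RNA in Cygb was not tested. Agxt2, a second route of ADMA breakdown, fell in acute injury (-5.60, adjusted p = 0.00204) and fibrosis (-2.41, adjusted p = 0.0392), differed by -0.20 in cirrhosis (adjusted p = 0.819), and is a hepatocyte gene.

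Downstream of nitric oxide, 4 of 7 cyclic GMP genes were tested in acute injury, of which 1 rose and 3 fell. In fibrosis 1 of 5 rose and 1 fell, and in cirrhosis 4 of 5 rose and 1 fell. Gucy1a3 and Gucy1b3, the subunits of soluble guanylate cyclase, the nitric oxide receptor, fell in acute injury (log2 fold changes -2.51 and -2.54, adjusted p = 0.00492 and 0.00246) and rose in cirrhosis (3.21 and 2.07, adjusted p = 0.000180 and 0.00185). Neither was called in fibrosis. Soluble guanylate cyclase is also abundant in stellate cells, whose markers changed in the same directions when Reln is left aside. Pde5a, which degrades cyclic GMP, rose at all 3 stages, by 4.24, 3.98 and 1.80 on the log2 scale (adjusted p at most 0.000481). Vasp, a target of the cyclic GMP kinase, fell at all 3 stages (-0.96, -1.09 and -1.06). The list's median was -1.73, -0.48 and 2.07.

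Among the other endothelin genes, Edn2 and Edn3 never had more than 2 counts in a library, so that Edn1 was the endothelin ligand measured in these libraries. Of 6 genes for processing and other ligands, 1 was tested in acute injury and in fibrosis and 2 in cirrhosis. Furin, the protease that makes big endothelin, fell by 0.89, 0.78 and 0.77 on the log2 scale at the 3 stages (adjusted p at most 0.00985). Ece2, a low-level second converting enzyme, rose in cirrhosis, from 0.0987 to 1.16 CPM on average (0 to 4 and 11 to 117 counts in a library, log2 fold change 3.21, adjusted p = 0.00327). It passed the low-count filter through the cirrhotic libraries, and was too low to be tested at the other stages against healthy LSECs. Of 10 genes of receptor signalling, 2 rose and 5 fell in acute injury, 2 rose and 4 fell in fibrosis and 6 rose and 2 fell in cirrhosis, with medians of -0.70, -0.28 and 1.13. Rock2 rose by 4.30, 4.23 and 2.47 on the log2 scale at the 3 stages, and Rock1 by 2.42, 2.30 and 1.65. Plcb1 fell in acute injury (-1.79) and rose in cirrhosis (1.80), and in fibrosis it was not called (-0.67). Gna11, a G protein subunit that couples endothelin receptors to phospholipase C, fell by 0.99, 1.28 and 1.56.

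In the TAA experiment, the same lists gave 2 higher and 1 lower of 9 synthase partners, 1 higher and 3 lower of 12 supply genes, 0 higher and 2 lower of 5 tested turnover genes and 0 higher and 3 lower of 5 tested cyclic GMP genes, where 27.6% of all genes were called. Of the endothelin processing genes, Furin (log2 fold change -0.64) and the endothelin-degrading Mme were lower. Mme had no counts in any library labelled TAA control, and passed the low-count filter through the libraries labelled control. Klf2 was higher (log2 fold change 1.63, adjusted p = 0.00197) and Cav1 lower (-0.94) in TAA control. Gucy1a3 (-2.54), Gucy1b3 (-1.57) and Pde5a (-1.48) were lower there, in the direction of the receptors and of the stellate markers. Of 10 genes of receptor signalling, 1 was higher and 1 lower. Immediate-early genes had medians of 17742 CPM in control and 46128 CPM in TAA control.

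The genes most like Nos3 and Edn1 in pattern were found by Pearson's r of log2 CPM over the 22 libraries of the CCl4 experiment among 8541 genes, as a description. Nos3 was followed most closely by Icam2, an endothelial adhesion molecule (r = 0.996), Coro2b, a coronin (r = 0.996), and Lamb2, a laminin chain (r = 0.996). Icam2 was at 351, 6.16, 5.91 and 126 CPM on average in healthy, acute, fibrosis and cirrhosis libraries. Such likeness was common, and 1075 genes (12.6%) had r above 0.9 with Nos3 over libraries that share their groups. Edn1 had no gene above 0.9. Its nearest were Prss23, a serine protease (r = 0.796), Sulf1, an extracellular sulfatase (r = 0.735), and Flnc, a filamin (r = 0.716). Prss23 rose from 4.59 CPM on average in healthy to 28.2, 51.3 and 70.7 CPM in acute, fibrosis and cirrhosis libraries.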

How the data were processed

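LSEC poly(A) RNA was sequenced from stranded libraries. The authors mapped reads to Rnor_6.0 with STAR and deposited RSEM expected counts per gene, not normalised and not pooled. RSEM divides reads that fit several genes, so genes with similar copies are less certain. Counts were rounded to whole numbers. Groups and replicate numbers came from the labels. Genes were filtered with filterByExpr, scaled with TMM and fitted by limma-voom, each fit holding 2 groups, over all genes and without covariates (R 4.3.3, limma 3.58.1, edgeR 4.0.16). The call used the fold-change of 1.5 named in the study's methods with Benjamini-Hochberg adjusted p-values under 0.05. CPM took a pseudocount of 0.5 on the log2 scale. All adjusted p-values are from limma-voom unless edgeR's quasi-likelihood test or DESeq2 (1.42.0) is named.

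The 8 members, the gene lists and the marker lists were chosen with earlier results of these data known. The text names the members, at most 4 called genes of a list and comparison with the largest change, and the 3 genes most like Nos3 and Edn1 with a mean log2 CPM of at least 3. Klf2 levels, Reln, Edn2, Edn3 and genes named beyond that were added after values were seen. Scripts were tested on simulated data. Alternatives were other tools, scalings, filters and thresholds, one fit over 22 libraries, the replicate block, averaged replicates 14 and 15, and each library left out. Plots were made in Python 3.11.15 (matplotlib 3.10.9). Macrophage markers summed to 283 to 2666 CPM in healthy, 65.9 to 201 in acute, 28.8 to 176 in fibrosis and 675 to 2466 in cirrhosis libraries. Lymphocyte markers stayed below 260 CPM, cholangiocyte markers below 108 CPM and neutrophil markers below 8 CPM. Protein sequences and Nos2 were not analysed here, and not every called gene of the receptor signalling list is named. Healthy, acute and cirrhotic libraries share replicate numbers but come from different rats. The labels do not say whether equal numbers mark a shared isolation day or run, and the main fits used no pairing.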

Additional observations from a re-analysis of the deposited data

Results flagged for a closer look

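By Dixon's criterion, 1 library stood apart from the rest of its group in 2 of 42 groups of libraries looked at, where chance gives about 2.1. Nos3 in cirrhosis replicate 6 was at 493 CPM, against 374 to 407 CPM in the other 5. That library also had the highest Ednrb in its group and the lowest hepatocyte sum (1692 CPM). Ddah1 in cirrhosis replicate 1 was at 58.4 CPM, against 31.6 to 37.7 CPM in the other 5, and the hepatocyte markers of that library summed to 11204 CPM, the highest of the 6. The part of hepatocyte RNA was not tested.

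For a pair of genes the stages differed from healthy LSECs in opposite directions and the stages themselves were compared. Ddah1, higher than healthy in acute injury and fibrosis and lower in cirrhosis, differed between cirrhosis and fibrosis by -1.47 and between cirrhosis and acute injury by -1.97 on the log2 scale. Ednrb, lower than healthy in acute injury and higher in cirrhosis, differed between the last 2 by 5.34. All 3 differences were called by limma-voom.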

How the results depend on the processing

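The members' count of calls moved by more than 1.5 times between fibrosis and acute injury (1 member). It was 2 without the fold-change threshold, 2 without the low-count filter and 0 in one fit over 22 libraries, and 1 to 2 with each library left out. Leaving out a library gave 5 to 6 members in acute injury (6 in the full fit), 4 to 6 in fibrosis (5), 5 to 7 in cirrhosis (6), 6 to 7 between cirrhosis and acute injury (6), 6 between cirrhosis and fibrosis and 4 in the TAA experiment, and library size in place of TMM gave 4 in cirrhosis. Small uncalled differences changed sign. Nos3 between fibrosis and acute injury was 0.00498 with upper-quartile factors and -0.085 to 0.047 with each library left out, and Edn1 between cirrhosis and fibrosis was -0.055 to 0.28 with each library left out. With the replicate number as a block, 5 members were called in acute injury and 6 each in cirrhosis against healthy and against acute LSECs, Edn1 in acute injury being the call that was lost. Deviations of same-numbered libraries correlated weakly or not at all, with r from 0.03 to 0.19, -0.24 to 0.29 and -0.09 to 0.09 in these comparisons. Of these libraries, 2 of 4, 0 of 6 and 0 of 4 were closest to their own number. The other groups share no numbers. Over all genes, calls between fibrosis and acute injury numbered 1529, but 2826 without the fold-change threshold, 746 in one fit and 1011 without acute replicate 1, and those of the TAA experiment 3970, but 7139 without that threshold. Library size in place of TMM shifted the median of all genes against healthy LSECs by 0.41, 0.40 and 0.34 on the log2 scale in acute injury, fibrosis and cirrhosis, and the share of calls that were higher from 50.3% to 60.9% in fibrosis and from 52.2% to 71.3% in cirrhosis. Upper-quartile factors shifted it by 0.14 between cirrhosis and healthy LSECs and by 0.19 between cirrhosis and acute injury. With upper-quartile factors, Edn1 in acute injury (0.71, adjusted p = 0.0666) and Ddah1 in cirrhosis (-0.60, adjusted p = 0.0668) were not called, and Edn1 was called between cirrhosis and acute injury (0.79, adjusted p = 0.0443), as it was without acute replicate 4 (0.81, adjusted p = 0.0382). The causes were not tested. Of the members' log2 fold changes as recomputed, 491 with a library left out and 475 under other alternatives kept their direction and their side of the threshold, and 20 and 14 did not. Depth limited Ednra outside cirrhosis and the group labelled control.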
